A study of Mus musculus with 18 samples.

Results

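The transcriptional response of Il10-/- bone marrow-derived macrophages (BMDMs) to the BET inhibitor (+)-JQ1 was compared between cells with and without lipopolysaccharide (LPS). For each gene, the JQ1 effect without LPS (the log2 fold change of JQ1-treated over untreated cells) was subtracted from the JQ1 effect during LPS stimulation, and this difference is called the interaction. A positive or higher interaction means that JQ1 raised a gene more, or lowered it less, during LPS than without it. The comparison used 12 of the 18 libraries of the series, 3 in each of 4 groups, and covered all 24485 genes listed, of which 12727 had enough counts to receive an adjusted p.

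All 4 groups were BMDMs from 12-week-old male Il10-/- mice on the C57BL/6J background, cultured from the marrow of 3 animals with L929-conditioned medium. Unstimulated cells received neither JQ1 nor LPS, JQ1 cells received (+)-JQ1 at 500 nM, and LPS and LPS + JQ1 cells received the same pretreatments followed by LPS at 50 ng/mL. The pretreatment lasted 12 hours and the stimulation, with buffer in place of LPS in the first pair of groups, lasted a further 4 hours. The labels call the cells without JQ1 untreated, while the methods name a vehicle control before LPS. The remaining 6 libraries came from cells pretreated with IL-10 at 10 ng/mL, with and without LPS, and were used to sort genes by their LPS response in libraries that do not enter the interaction. As every group carried the Il10 deletion, none of the values can be set against cells that make IL-10.

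BET proteins are chromatin readers that bind acetylated lysines on histones through their bromodomains and help to release paused RNA polymerase II. JQ1 occupies the bromodomain pocket and detaches these proteins from chromatin. LPS, a component of the bacterial outer membrane, acts through Toll-like receptor 4 to induce cytokines, interferon-stimulated genes and other inflammatory genes in macrophages while many genes of resting cells are switched off. The comparison addresses which genes respond to BET inhibition differently once macrophages have been activated.

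The 12 libraries held 6781952 to 20560937 expected counts each, so that 3 counts, the smallest amount taken as detectable, corresponded to 0.146 to 0.442 CPM, counts scaled to a common library total (counting error only). The ribosomal RNA precursor Rn45s took 10.0% of counts on average in unstimulated, 11.4% in JQ1, 6.44% in LPS and 7.55% in LPS + JQ1 libraries. All 8 macrophage markers (among them Csf1r, Cd68 and Itgam) reached 1 TPM in every library, with a summed level (interaction higher in 1 marker and lower in 6) of 22971 to 24769 TPM in unstimulated, 28936 to 29066 in JQ1, 14317 to 15764 in LPS and 19578 to 22564 in LPS + JQ1 cells. The summed markers of T and NK, B, dendritic, mast, erythroid and stromal cells stayed between 0 and 10.3 TPM and those of neutrophils between 7.50 and 87.3 TPM, and the defining genes Ncr1 and Ly6g were at 0 throughout. Unstimulated replicate 1 stood apart in LPS-inducible genes, with 1966 normalised counts of the complement gene C3 against 304 and 418 in replicates 2 and 3, and named genes that lost their call without replicate 1 are given as such. In bulk libraries fewer cells of a type and less RNA per cell cannot be told apart.

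The knocked-out gene itself, Il10 (mm9 chromosome 1, 132916422 to 132921551, plus strand), had reads in every library. In replicate order (1, 2 and 3), unstimulated libraries held 37.0, 27.1 and 33.5 normalised counts, JQ1 libraries 60.5, 43.4 and 34.8, LPS libraries 53.7, 61.0 and 74.9, and LPS + JQ1 libraries 118, 142 and 164. The LPS + JQ1 libraries lay above all others. The interaction was 0.68 (SE 0.322) and did not pass the threshold (DESeq2 Wald test, Benjamini-Hochberg adjusted p 0.0782), although it passed with TMM factors (0.81, adjusted p 0.0313), total-count scaling (1.23, adjusted p 0.000789) and log2(TPM + 1) (1.05, adjusted p 0.00342).

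JQ1 acted differently with and without LPS on 5279 of 12727 genes (41.5%), among which the interaction was higher in 2250 (17.7%) and lower in 3029 (23.8%). The difference was at least 1 on the log2 scale for 989 genes in the higher direction (7.77%) and for 1003 in the lower direction (7.88%). At an unadjusted DESeq2 p under 0.05 there were 6123 genes, counted over all genes with a p and not only the 12727 with an adjusted p. Of the genes called, 5235 had the same sign in all 3 same-numbered sets of libraries and 4780 had a mean of at least 10 normalised counts in all 4 groups. With replicate 1 left out 3471 genes passed, of which 1288 were higher and 2183 lower.

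The balance of directions depended on how the libraries were scaled. The higher share of calls was 42.6% with the median-of-ratios factors, 54.7% with TMM factors, 85.4% with total-count scaling and 82.8% with limma on log2(TPM + 1), while the median interaction over all genes tested was -0.05, 0.08, 0.51 and 0.39, respectively. Of the 989 genes with a higher interaction of at least 1, 913 were higher under all 4 scalings, and of the 1003 lower genes 734 were lower under all 4. On the plain count scale, where differences in normalised counts replace ratios, 200 of the 2250 higher genes (8.89%) and 101 of the 3029 lower genes (3.33%) had the opposite sign.

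**Figure D1:**
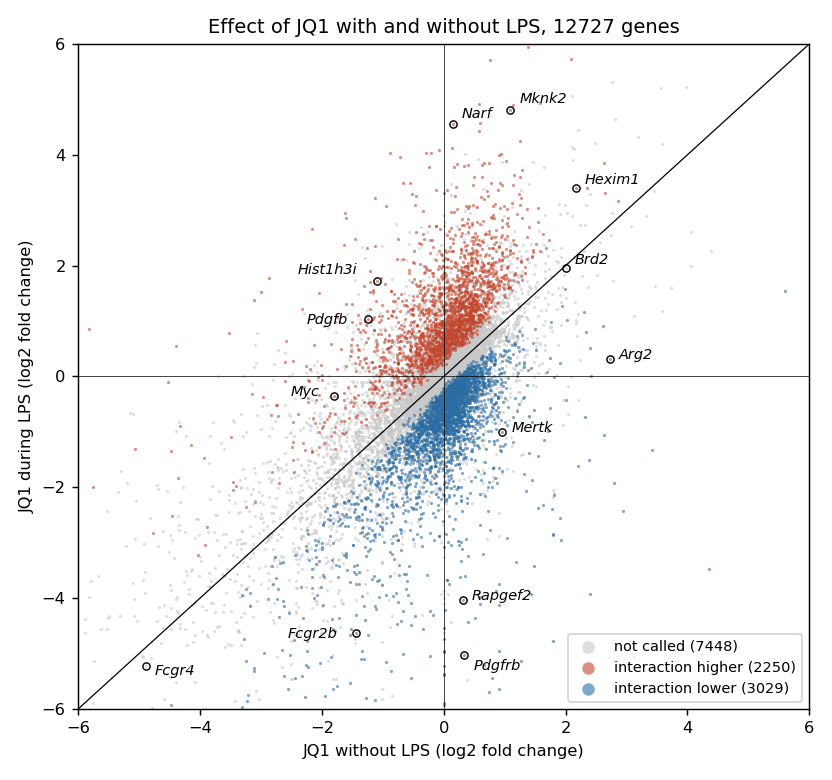
Effect of JQ1 on each tested gene without LPS (x axis) and during LPS (y axis), as log2 fold changes. Each point is a gene, red where the interaction was called higher (2250), blue where it was called lower (3029) and grey where it was not called, and the diagonal marks equal effects. Brd2 lies on the diagonal, Narf, Mknk2 and Hist1h3i lie above it and Rapgef2, Pdgfrb and Mertk below it, and 65 genes lie outside the axes.

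The genes called fell into several patterns according to the JQ1 effects they combined. The largest group, 2202 genes (41.7%), was changed by JQ1 during LPS only, 887 upward and 1315 downward. In a further 1464 (27.7%) JQ1 acted in the same direction in both states but more strongly during LPS, with 726 larger rises and 738 larger falls. The reverse, a stronger effect in the same direction without LPS, was seen in 168 genes (3.18%), and 683 (12.9%) were changed without LPS only. In 641 genes (12.1%) JQ1 acted in opposite directions, lowering 204 without LPS and raising them during LPS, and raising 437 without LPS and lowering them during LPS. For 121 genes (2.29%) neither effect passed alone. All 6 counts are a sorting of the same calls and carry no test of their own. JQ1 changed 6248 of 13686 genes without LPS (45.7%) and 8209 of 14326 during LPS (57.3%).

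The sign of the interaction followed the LPS response. Genes were split by their response to LPS in the IL-10-treated libraries, none of which enters the interaction and in which 18.1% of 14326 genes rose and 20.4% fell by at least 1. Over the 2509 genes that LPS induced there (called, with a log2 change above 1), the median interaction was -0.79 (-0.76, -0.80 and -0.90 in replicates 1, 2 and 3), 61.1% were lower and 2.99% higher. Over the 2852 genes that LPS repressed there (below -1), the median was 0.72 (0.71, 0.72 and 0.74), 43.3% were higher and 3.51% lower. The remaining 7366 genes had a median of -0.06, with 12.8% higher and 19.0% lower, and this median became positive with TMM (0.06) and total-count scaling (0.30).

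The median effect of JQ1 without LPS was -0.08 in the induced and -0.11 in the repressed group, and that during LPS -0.96 and 0.61. With total-count scaling, which sorts the genes anew, the effects without LPS were -0.45 and -0.21 and those during LPS -0.98 and 0.74. With the median-of-ratios factors the LPS response of the induced genes was 2.17 at the median in untreated and 1.26 in JQ1-treated cells, and that of the repressed genes -1.89 and -1.21. Across the range of LPS responses the median interaction fell step by step, from 1.43 for 212 genes with a log2 change below -4, through 0.14 between -1 and 0 and -0.22 between 0 and 1, to -0.66 between 1 and 2 and -1.70 for 203 genes above 6. With total-count scaling the ends were 1.87 and -1.10, the value was higher at every step, and the order broke only between 2 to 3 (-0.56) and 3 to 4 (-0.43). With the median-of-ratios factors the share called lower peaked at 66.5% between 2 and 3. That share was 44.8% between 4 and 6 and 41.4% above 6. The median above 6 was the value of Il12b, whose interaction did not pass (DESeq2 adjusted p 0.428). The steps are medians over genes, which are not independent of each other, and no test was made.

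**Figure D2:**
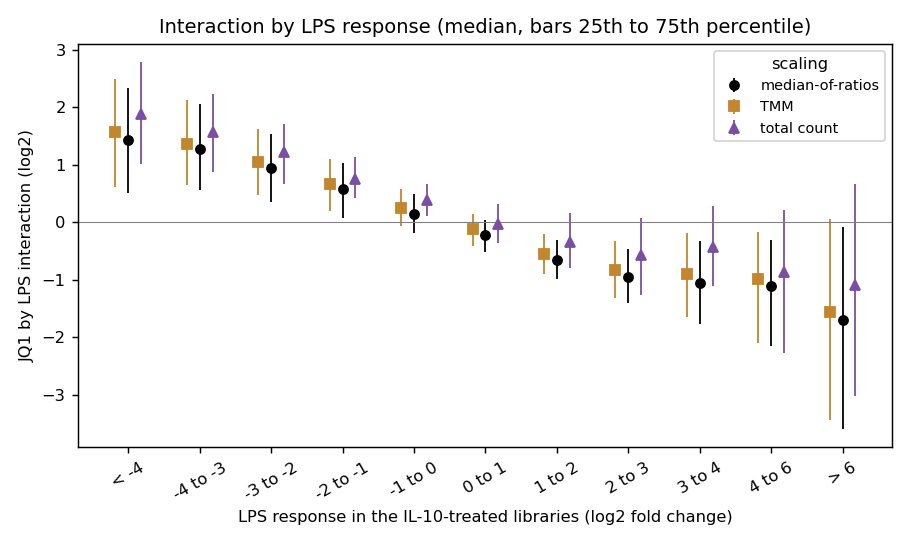
JQ1 by LPS interaction (y axis, log2) for genes grouped by their LPS response in the IL-10-treated libraries (x axis, log2 fold change), under 3 scalings. Points are medians over the genes of a group and bars run from the 25th to the 75th percentile. The median-of-ratios values fall from 1.43 at the left to -1.70 at the right.

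Among genes with at least 100 normalised counts on average, the 10 largest higher interactions were all in genes that LPS lowered in untreated cells, by 2.17 (Hist1h3i) to 6.74 (Tmem86a) on the log2 scale. The untreated libraries enter both the interaction and this LPS response, so a ranking by the interaction itself favours such genes. Narf (mm9 chromosome 11, 121098567 to 121117170, plus strand), which encodes a protein that binds prelamin A, had 377, 391 and 365 normalised counts in unstimulated cells and 425, 392 and 431 with JQ1. LPS left 14.1, 9.31 and 13.5 counts, whereas 283, 303 and 268 were found with LPS + JQ1. The LPS libraries stood far below the other 9, and the interaction was 4.42 (SE 0.293, DESeq2 adjusted p 6.37e-49).

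Mknk2 (chromosome 10, 80128077 to 80139038, minus strand), a kinase that phosphorylates the translation initiation factor eIF4E, was also raised by JQ1 alone. The gene had 3035, 3429.9 and 3189 counts in unstimulated cells, 6564, 7088 and 6899.9 with JQ1, 127, 131 and 98.2 with LPS, and 3417, 3081 and 3485 with LPS + JQ1. The 4 groups did not overlap except for unstimulated and LPS + JQ1 cells. JQ1 raised the gene by 1.09 without LPS and by 4.80 during LPS, so the interaction was 3.71 (SE 0.136, DESeq2 adjusted p 1.49e-159).

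Tmem86a, a lysoplasmalogenase, showed the same form without any effect of JQ1 alone. It had 1210.4, 1431 and 1348 counts in unstimulated cells, 1299.8, 1372 and 1296 with JQ1, 7.07, 18.6 and 9.82 with LPS, and 114, 120.1 and 134 with LPS + JQ1. The LPS + JQ1 libraries lay above the LPS libraries and below both unstimulated groups. The interaction was 3.31 (SE 0.304, DESeq2 adjusted p 8.52e-26). The other genes of this ranking were Agfg2 (3.21), 6430548M08Rik (3.19), the membrane contact site lipid transfer gene C2cd2l (3.11), Tbl2 (2.98), Ier5l (2.88), the histone gene Hist1h3i (2.82) and Abhd15 (2.81). JQ1 lowered Hist1h3i and Ier5l (-0.76, DESeq2 adjusted p 1.36e-05) without LPS and none of the other 8.

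The 10 largest lower interactions were, except for Rgs2, in genes that LPS induced in untreated cells. Here too the untreated libraries enter both values, so the ranking favours this direction of the LPS response. The mean level with LPS + JQ1 was below that of unstimulated cells for some of these 10 genes (for example 10.5 against 52.7 counts for Klf7). For others it was above (for example 531 against 22.6 for Vcan). Pdgfrb (chromosome 18, 61204804 to 61244715, plus strand), the receptor for platelet-derived growth factor B, had 15.4, 10.1 and 19.4 counts in unstimulated cells, 13.8, 23.7 and 23.8 with JQ1, 988, 869.6 and 762 with LPS, and 36.4, 16.8 and 27.1 with LPS + JQ1. Only the LPS libraries stood apart. The interaction of -5.37 (SE 0.375, DESeq2 adjusted p 4.01e-44) therefore rests on low counts in 3 of the 4 groups.

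Rapgef2 (chromosome 3, 78866438 to 78985262, minus strand), an exchange factor for Rap GTPases, gave the same form at high counts. It had 749, 649 and 618 counts in unstimulated cells, 905, 838 and 758 with JQ1, 18859, 16908 and 18604 with LPS, and 1073, 1075 and 1156 with LPS + JQ1. JQ1 raised it slightly without LPS (0.31, DESeq2 adjusted p 0.00567) and lowered it during LPS by 4.04 on the log2 scale, an interaction of -4.35 (SE 0.137, DESeq2 adjusted p 4.75e-216). The matrix genes Tnc (tenascin C, -4.88) and Vcan (versican, -3.53), Gm12185 (-3.86), the Wnt receptor Fzd1 (-3.84), the transcription factor Klf7 (-3.81) and Ppp1r15a (-3.21) had the same sign, and Klf7 was also lowered by JQ1 alone (-1.96, DESeq2 adjusted p 1.14e-11).

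Rgs2, which shortens G protein signals, was the exception among the 10 lowest interactions because LPS lowered it. The gene had 1859, 1979 and 2158 counts in unstimulated cells, 2502, 2548 and 2339.9 with JQ1, 1017, 1253 and 1464 with LPS, and 140.3, 148 and 143 with LPS + JQ1. None of the 4 groups overlapped. The interaction was -3.41 (SE 0.167, DESeq2 adjusted p 1.65e-89).

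Fcgr2b, the inhibitory receptor for IgG, combined a fall in both states. It had 1315, 1285 and 1173 counts in unstimulated cells, 446, 465 and 473 with JQ1, 8011, 7389 and 8087 with LPS, and 337, 300.1 and 315 with LPS + JQ1. The level with LPS + JQ1 was below that with JQ1 alone in every library. The interaction was -3.18 (SE 0.117, DESeq2 adjusted p 7.64e-159), and reads shared with other members of the Fc receptor family make the counts uncertain.

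**Figure D3:**
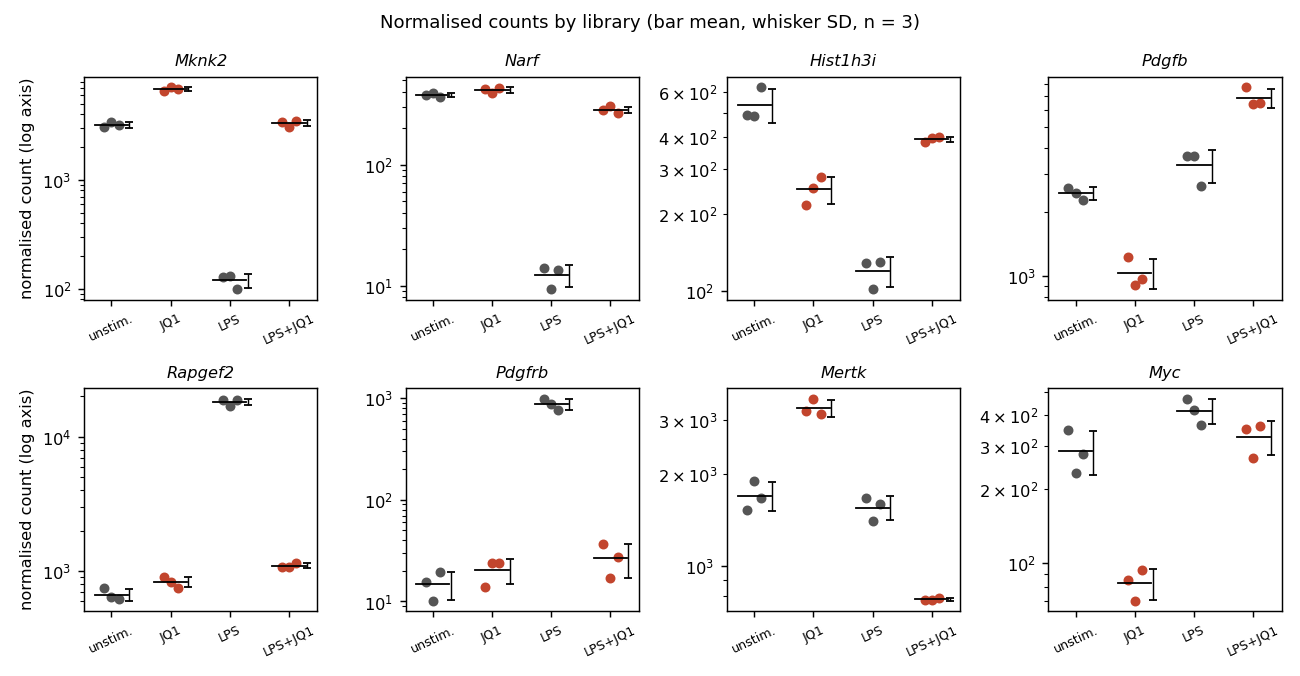
Normalised counts (y axis, log scale) of 8 genes in the 3 libraries of each of 4 groups, with JQ1-treated libraries in red. Horizontal bars are group means and whiskers the SD (n = 3). The LPS libraries of Mknk2 (98.2 to 131) and Narf (9.31 to 14.1) sit below all others, those of Rapgef2 and Pdgfrb above all others, and Hist1h3i, Pdgfb and Mertk change in opposite directions with JQ1 in the 2 states.

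The same genes can be read against IL-10 in place of untreated cells. The difference between the LPS response with JQ1 and the LPS response with IL-10 contains no untreated library and passed for 4886 of 12727 genes (38.4%). It shares the JQ1 libraries of both states with the interaction by which these genes were ranked, so it is not an independent check of them. The difference was 2.24 for Narf, 3.64 for Mknk2, -5.07 for Pdgfrb, -3.89 for Rapgef2 and -3.57 for Fcgr2b. For Narf it was smaller than the interaction because IL-10 itself had an interaction with LPS (2.17, DESeq2 adjusted p 5.49e-10), whereas for Mknk2 that of IL-10 was 0.07 (adjusted p 0.930). The IL-10 by LPS interaction passed for 804 of 10808 genes (7.44%).

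Among genes on which JQ1 acted in opposite directions, histone genes led the group that fell without LPS and rose during LPS. Hist1h3i (chromosome 13, 21874784 to 21875266, minus strand), which encodes histone H3, had 491, 485 and 628 counts in unstimulated cells, 218, 253 and 278 with JQ1, 129, 101 and 130.1 with LPS, and 382, 396 and 400.1 with LPS + JQ1. JQ1 lowered it by 1.10 on the log2 scale without LPS (DESeq2 adjusted p 5.50e-11) and raised it by 1.72 during LPS (adjusted p 1.07e-21), and neither pair of groups overlapped. The linker histone gene Hist1h1d (chromosome 13, 23646901 to 23650721, plus strand) had 872, 899.8 and 1081 counts in unstimulated cells, 400.4, 388 and 445 with JQ1, 120.2, 166 and 149.8 with LPS, and 367, 449.7 and 454 with LPS + JQ1, an interaction of 2.74 (SE 0.194, DESeq2 adjusted p 6.25e-43). The interactions of Hist1h2ae and Hist1h2bn, genes of histones H2A and H2B, were 2.72 and 2.17.

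The histone genes moved together as a family. These replication-dependent genes are normally transcribed in S phase, when new chromatin is assembled. Of 66 tested, the interaction was higher in 49 and lower in 2, against 17.7% and 23.8% of all genes, with a median of 1.63 against -0.05 for all genes. The counts were 52 and 2 with TMM factors, 56 and 0 with total-count scaling and 58 and 0 with TPM. Over all genes they were 2888 and 2390 of 12727 with TMM factors. Total-count scaling gave 5964 and 1023 of 13367, and TPM 5661 and 1176 of 11436. The median JQ1 effect over the family was -0.85 without LPS and 1.04 during LPS, and 24 of the 49 higher members made up 11.8% of the 204 genes with this opposite pattern. The family held 66 of the 12727 genes tested, and 204 of all 2250 higher calls had the opposite pattern.

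Both lower members encode histone H3. Hist1h3b (chromosome 13, 23844136 to 23844755, plus strand) had 534, 599 and 596 counts in unstimulated cells, 159, 167 and 226 with JQ1, 194, 199.6 and 165 with LPS, and 34.2, 33.7 and 29.5 with LPS + JQ1, so that it fell in both states. Its interaction was -0.87 (SE 0.282, DESeq2 adjusted p 0.00665), and that of Hist1h3c, which fell likewise, was -1.28 (adjusted p 0.00203). Neither passed with total-count scaling (-0.31 and -0.73) or log2(TPM + 1) (-0.31 and -0.54).

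Counts within the family are uncertain because near-identical coding sequences share reads. Hist1h2bq and Hist1h2br, singled out after their values were seen, had the same mean in all 4 groups (513, 289, 198 and 452 normalised counts) and are in effect 1 measurement. For 12 of the 69 listed genes a group mean lay under 10 counts. Genes of the cell cycle and of DNA replication gave no single direction. Of 22 tested, the interaction was higher in 1 and lower in 3, against 6 and 1 with total-count scaling, 11 and 2 with log2(TPM + 1) and 0 and 1 without replicate 1. The median JQ1 effect over this list was -1.32 without LPS and -1.55 during LPS. Its median interaction was -0.20, and 0.35 with total-count scaling. JQ1 lowered the proliferation marker Mki67 in both states (-1.28 and -3.24, interaction -1.96, DESeq2 adjusted p 2.53e-25), a larger interaction than the list median. Its counts ran from 1387 to 1701 in unstimulated, 616 to 649 in JQ1, 6313 to 7909 in LPS and 717 to 804 in LPS + JQ1 cells. The part of cycling cells in the histone result was not tested here. The paper measured BrdU incorporation in Il10-/- BMDMs cultured with JQ1 and reports no effect on cell cycle progression.

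**Figure D4:**
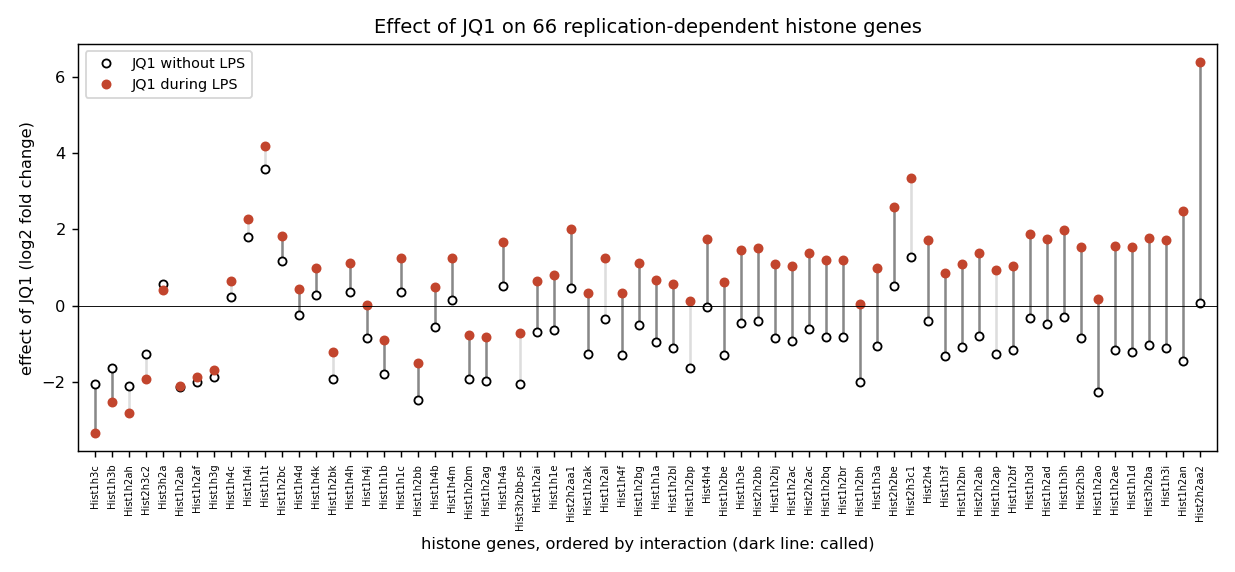
Effect of JQ1 (y axis, log2 fold change) on each of 66 replication-dependent histone genes (x axis, ordered by interaction) without LPS (open circles) and during LPS (red circles). Dark lines join the values of genes with a called interaction, and light lines those of the rest. For most genes the red circle lies above 0 and the open circle below it, with Hist1h3b and Hist1h3c at the left as the called exceptions, and Hist2h2aa2 at the far right was undetected in LPS libraries, so its fitted value is not a bound.

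The promoter sequences of 3 of the histone genes with opposite effects are shown with that of Hist1h3b, which fell in both states. They run from 250 bases before the start of the gene to 50 bases after it, 5′ to 3′ on the strand of the gene, and come from RefSeq (GRCm38.p6, another build than the mm9 coordinates above). Capitals mark TATAAA and CCAAT on either strand (TTTATA and ATTGG where the motif is on the other strand). The windows are chr13:23554782-23555081 (plus strand) for Hist1h1d, chr13:21783348-21783647 (minus strand) for Hist1h3i, chr13:23571171-23571470 (minus strand) for Hist1h2ae and chr13:23752095-23752394 (plus strand) for Hist1h3b.
Hist1h1d: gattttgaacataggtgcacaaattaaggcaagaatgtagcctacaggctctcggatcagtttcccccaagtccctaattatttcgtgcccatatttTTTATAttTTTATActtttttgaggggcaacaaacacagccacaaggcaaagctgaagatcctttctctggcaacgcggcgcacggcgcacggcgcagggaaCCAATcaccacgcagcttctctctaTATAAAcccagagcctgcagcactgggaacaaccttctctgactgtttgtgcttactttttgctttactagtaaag
Hist1h3i: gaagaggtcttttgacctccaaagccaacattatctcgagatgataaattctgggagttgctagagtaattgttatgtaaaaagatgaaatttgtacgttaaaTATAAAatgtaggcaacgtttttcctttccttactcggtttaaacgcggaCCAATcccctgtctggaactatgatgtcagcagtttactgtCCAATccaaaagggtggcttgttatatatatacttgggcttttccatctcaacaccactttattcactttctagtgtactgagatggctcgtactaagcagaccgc
Hist1h2ae: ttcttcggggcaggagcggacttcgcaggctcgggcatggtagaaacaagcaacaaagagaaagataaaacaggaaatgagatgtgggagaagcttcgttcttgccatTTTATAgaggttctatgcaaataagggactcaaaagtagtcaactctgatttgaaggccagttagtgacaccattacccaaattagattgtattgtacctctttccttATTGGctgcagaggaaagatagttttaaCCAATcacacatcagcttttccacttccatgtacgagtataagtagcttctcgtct
Hist1h3b: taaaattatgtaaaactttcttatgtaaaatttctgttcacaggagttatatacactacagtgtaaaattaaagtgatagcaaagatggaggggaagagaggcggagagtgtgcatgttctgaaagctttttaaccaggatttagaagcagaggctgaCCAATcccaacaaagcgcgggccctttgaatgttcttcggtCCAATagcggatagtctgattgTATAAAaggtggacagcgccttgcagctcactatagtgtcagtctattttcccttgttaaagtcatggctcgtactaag

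TATAAA stood on the strand of the gene 26 bases before the start in Hist1h1d and 29 bases before it in Hist1h3b, which puts a TATA match near the start in a gene of either direction of interaction. In Hist1h3i and Hist1h2ae the only exact TATAAA matches lay further upstream, at 147 and 142 bases before the start. Other TATA-like forms, such as the tatatata downstream of the second CCAAT in Hist1h3i, were not searched for. The absence of an exact match near the start therefore does not show that these genes lack a TATA element there. CCAAT was present in all 4. Of the 66 histone genes, 58 matched a promoter, of which 32 (55.2%) held TATAAA and 50 (86.2%) CCAAT, against 14.2% and 37.9% of the promoters of 27025 genes. Among the 44 matched members with a higher interaction the shares were 59.1% and 84.1%. These are counts of letters in a window and were not tested.

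Outside the histones, Pdgfb (chromosome 15, 79826330 to 79845238, minus strand), the ligand of the receptor encoded by Pdgfrb, had the opposite pattern as well. It had 2597, 2459 and 2271 counts in unstimulated cells, 1228, 906 and 974 with JQ1, 3676, 3656 and 2642 with LPS, and 7684, 6422 and 6449 with LPS + JQ1. JQ1 lowered it without LPS (-1.24) and raised it during LPS (1.04), with no overlap in either pair, and the interaction was 2.28 (SE 0.236, DESeq2 adjusted p 1.67e-20). Ligand and receptor thus had interactions of opposite sign.

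In the other direction, JQ1 raised Mertk, a receptor tyrosine kinase for the uptake of apoptotic cells, without LPS and lowered it during LPS. Mertk (chromosome 2, 128524692 to 128628630, plus strand) had 1534, 1899 and 1668 counts in unstimulated cells, 3207, 3532 and 3134 with JQ1, 1668, 1403 and 1599.8 with LPS, and 775, 775 and 789 with LPS + JQ1. LPS did not move the untreated libraries beyond their spread, and both JQ1 groups stood apart from them on opposite sides. The effects were 0.96 and -0.996 and the interaction -1.95 (SE 0.132, DESeq2 adjusted p 4.65e-47).

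Cebpd, a transcription factor of the acute phase response, showed the same signs while being induced by LPS. It had 437, 353 and 295 counts in unstimulated cells, 638, 739 and 606 with JQ1, 3459.7, 3205 and 2511 with LPS, and 1435, 1242 and 1488 with LPS + JQ1, an interaction of -2.01 (SE 0.208, DESeq2 adjusted p 1.32e-20). The other genes named by this rule were Rnaset2b (-2.23), whose reads may be shared with a close copy, 1600014C10Rik (-2.22) and Nlgn2 (-2.18). All 10 opposite-direction genes named here kept their sign with TMM, total-count and TPM values.

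Lists of genes from pathways of LPS-treated macrophages and of BET inhibition were then counted, beside 17.7% higher and 23.8% lower calls over all genes. List counts given for total-count scaling stand beside 5964 higher and 1023 lower calls over 13367 genes in that scaling. Inflammatory cytokines had 0 higher and 10 lower of 21 tested (median -1.45; 1 and 6 with total-count scaling). Tnf (chromosome 17, 35336326 to 35338952, minus strand) had 447, 242 and 297 counts in unstimulated cells and 271, 180.4 and 223 with JQ1, which overlapped. With LPS it had 145049, 136379 and 129045 counts and with LPS + JQ1 35589, 34387 and 37076, which did not. The interaction of Tnf was -1.39 (SE 0.362, DESeq2 adjusted p 0.000552) and that of Osm, which encodes oncostatin M, -2.20 (adjusted p 1.01e-09).

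For 13 of the 21 cytokine genes at least 1 group mean lay under 10 counts, so the effect of JQ1 without LPS could hardly be measured. Il12b, the p40 subunit of IL-12 and IL-23, had 18.5, 1.69 and 0 counts in unstimulated and 3.46, 0 and 0 in JQ1 cells, against 38525 to 48725 with LPS and 2092 to 2574 with LPS + JQ1. Its interaction (-1.70, SE 1.63, DESeq2 adjusted p 0.428) was not detectable at this depth. Il6 was at 0 in all 3 JQ1 libraries and its interaction did not pass either (-1.30, SE 1.43, adjusted p 0.501). Il12b and Il6 both passed with limma on log2(TPM + 1) (-3.60 and -4.23, adjusted p 1.14e-05 and 3.39e-07) and on log2(TPM + 0.1) (-2.90 and -3.20, adjusted p 0.0151 and 0.00173). For counts this low the added constant draws the JQ1 effect without LPS towards 0. These values therefore mostly carry the JQ1 effect during LPS (-4.24 and -4.88 with DESeq2) and do not settle the interaction.

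Chemokines had 1 higher and 7 lower of 18 (3 and 3 with total-count scaling). Their median of -0.60 was 0.04 without replicate 2 (2 and 6) and 0.52 without replicate 3 (2 and 3). The interaction of Ccl3 was -1.47 (DESeq2 adjusted p 4.12e-12), with 249 ± 34.4 counts in unstimulated, 215 ± 31.9 in JQ1, 137295 ± 7295 in LPS and 42419 ± 3718 in LPS + JQ1 cells (SD, n = 3). Cxcl16 went the other way (1.06, adjusted p 9.47e-10), since JQ1 lowered it by 1.53 without LPS and by 0.47 during LPS. Ccl2 did not pass (0.77, adjusted p 0.259), except with total-count scaling (1.32, adjusted p 0.0368).

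Toll-like receptors and their adaptors, which carry the LPS and other microbial signals, had 2 higher and 14 lower of 20 (median -0.93; 5 and 8 with total-count scaling). In 11 of the 14 JQ1 lowered the gene in both states and more so during LPS, a pattern of 738 of the 3029 lower calls over all genes. Tlr7, a receptor for single-stranded RNA, had 919.5, 925 and 1013 counts in unstimulated cells, 184, 177 and 157 with JQ1, 3919, 3761 and 6794 with LPS, and 151, 212 and 171 with LPS + JQ1. The JQ1 libraries overlapped each other whether or not LPS was present, and the interaction was -2.30 (SE 0.384, DESeq2 adjusted p 2.05e-08). Tlr8 was not detectably changed by JQ1 alone (-0.22, adjusted p 0.410) and fell by 2.82 during LPS, an interaction of -2.60. Ticam2 and Irak4, both signalling adaptors or kinases of the pathway, were higher (0.90 and 0.41), and the call of Irak4 was lost without replicate 1 (0.31, adjusted p 0.254) and without replicate 3 (adjusted p 0.0737). Nod2, a cytosolic sensor of bacterial cell walls, had an interaction of -1.16 (adjusted p 8.29e-05), a call lost with total-count scaling (-0.60, adjusted p 0.0509) and without replicate 3 (-0.99, adjusted p 0.123).

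Fc and scavenger receptors had 0 higher and 9 lower of 14 (median -0.91; 1 and 6 with total-count scaling). JQ1 lowered 6 of the 9 in both states, against 738 of the 3029 lower calls over all genes. Fcgr1, the high-affinity IgG receptor, had an interaction of -1.46 (adjusted p 1.20e-17), while Fcgr4 passed with log2(TPM + 1) (-0.96, adjusted p 0.00431) but not with DESeq2 (-0.33, adjusted p 0.575) and had 2.96 to 6.41 counts with JQ1. MHC class II and costimulatory genes had 1 higher and 6 lower of 13 (2 and 3 with total-count scaling, 0 and 3 without replicate 2), led by Cd86 (-2.23, adjusted p 1.61e-18), and the higher gene, Cd274, lost its call without replicate 1 (0.49, adjusted p 0.0528) and without replicate 2 (0.98, adjusted p 0.106). Genes of nitric oxide, arginine, itaconate and prostaglandin metabolism had 0 higher and 4 lower of 11 (1 and 4 with total-count scaling). Arg2, the mitochondrial arginase, was raised by JQ1 without LPS only, with 29.3, 44.0 and 32.8 counts in unstimulated, 225, 257 and 199.7 in JQ1, 18.4, 6.20 and 14.7 in LPS, and 8.83, 22.1 and 16.0 in LPS + JQ1 cells. The JQ1 libraries lay above all others and the unstimulated libraries above both LPS groups, which overlapped (interaction -2.41, SE 0.507, DESeq2 adjusted p 1.19e-05).

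**Figure D5:**
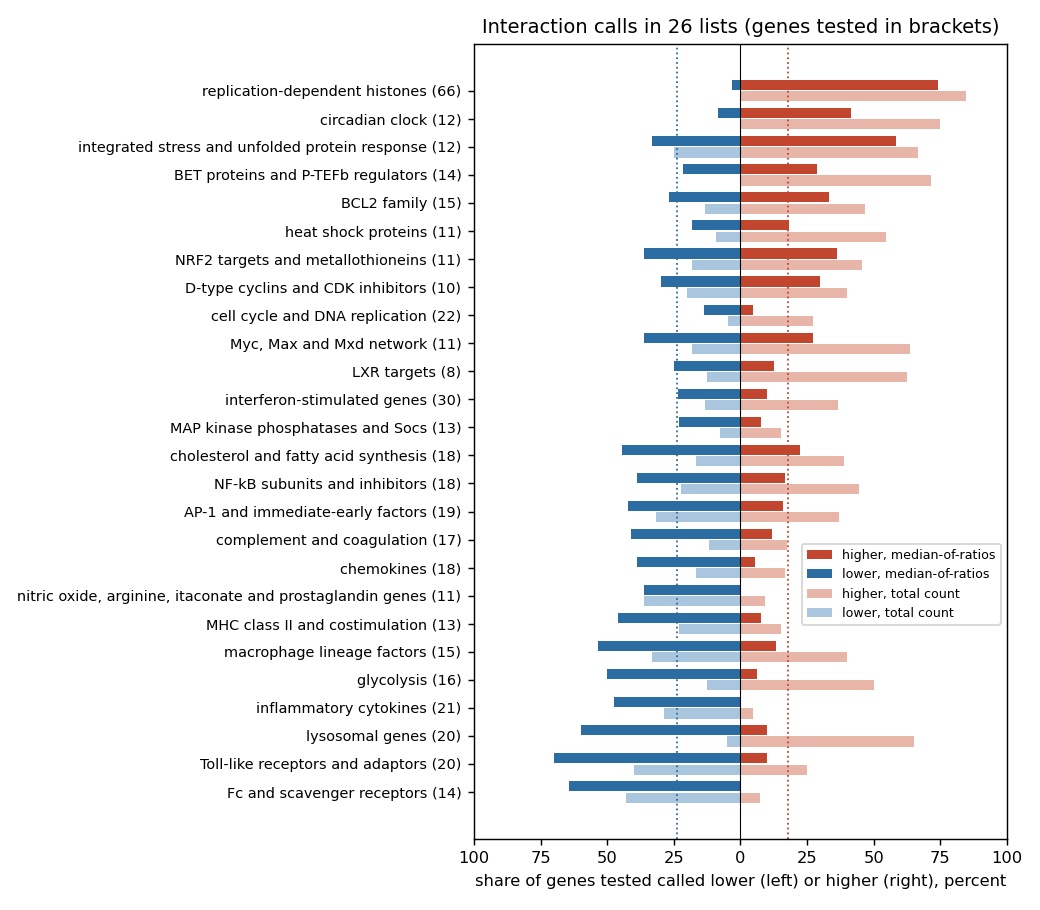
Share of the tested genes of 26 lists with a lower (left) or higher (right) JQ1 by LPS interaction, in percent of the genes tested with DESeq2. Dark bars use median-of-ratios factors, pale bars total-count scaling, and dotted lines mark the median-of-ratios shares over all genes (23.8% lower, 17.7% higher). No line marks the total-count calls over all genes (1023 lower and 5964 higher of 13367). Histone genes reach furthest to the right under both scalings. The lysosomal, glycolysis, interferon, NF-kB, AP-1, phosphatase and Socs, Myc network, cell cycle, cholesterol, LXR, macrophage lineage and complement lists change side.

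Interferon-stimulated genes gave no single direction, with 3 higher and 7 lower of 30 and a median of 0.10, against 11 and 4 and a median of 0.66 with total-count scaling. Without replicate 1, in which the unstimulated library stood apart, the counts were 4 and 13 and the median was -0.38, and without replicates 2 and 3 in turn the medians were 0.71 and 0.54. Isg15, a ubiquitin-like protein, had 176, 71.0 and 71.1 counts in unstimulated cells, 24.2, 29.6 and 26.6 with JQ1, 19515, 21836 and 17859 with LPS, and 16647, 19109 and 20742 with LPS + JQ1. JQ1 thus lowered it only without LPS, and the interaction was 1.94 (SE 0.398, DESeq2 adjusted p 6.72e-06) with all replicates and 1.34 without replicate 1. The RNA sensor gene Dhx58 (-2.16) and Trim30a (-1.66) were lower. C3, a complement gene, had an interaction of 2.10 (adjusted p 0.0399) with all replicates, 1.09 (adjusted p 6.80e-05) without replicate 1 and 2.29 (adjusted p 0.112) without replicate 3, and the call of Usp18 (1.07, adjusted p 0.0473) was lost without any 1 of the replicates.

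Regulators of the inflammatory response were split. NF-kB subunits and inhibitors had 3 higher and 7 lower of 18 (8 and 4 with total-count scaling). Tnip3, an inhibitor of NF-kB signalling, had 731, 555 and 617 counts in unstimulated cells, 178, 120.3 and 156 with JQ1, 3501, 3234 and 5159 with LPS, and 3504, 4154 and 4185 with LPS + JQ1, so it was lowered by JQ1 without LPS only (interaction 2.06, SE 0.276, DESeq2 adjusted p 1.29e-12). Nfkbiz, a nuclear IkB protein, had the opposite sign (-1.69, adjusted p 2.16e-10) after a rise of 1.31 with JQ1 alone. Nfkbia did not pass (-0.14, adjusted p 0.541) but was called higher with total-count scaling (0.42, adjusted p 0.0238).

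AP-1 and immediate-early genes had 3 higher and 8 lower of 19 (7 and 6 with total-count scaling). Fosl2, an AP-1 subunit, was raised by JQ1 without LPS and lowered during LPS, with 1206, 1071 and 1017 counts in unstimulated, 1841, 2057 and 1889 in JQ1, 543, 590.4 and 615 in LPS, and 182, 182 and 191 in LPS + JQ1 cells. No groups overlapped, and the interaction was -2.47 (SE 0.170, DESeq2 adjusted p 1.33e-45). Maff had the same interaction (-2.47), whereas Jun (0.84) and Klf2 (1.30) were higher, JQ1 raising both in each state. MAP kinase phosphatases and Socs genes had 1 higher (Dusp10, 1.47) and 3 lower of 13 (2 and 1 with total-count scaling), the lowest being Socs1 (-1.65), a call lost without replicate 2 (adjusted p 0.208).

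Among the BET proteins and regulators of the elongation factor P-TEFb, 4 were higher and 3 lower of 14 (10 and 0 with total-count scaling). Hexim1, which holds P-TEFb inactive, had an interaction of 1.23 (adjusted p 1.48e-18) and Brd3 of 0.73 (adjusted p 9.30e-07), whereas Brd2 did not differ detectably (-0.05, SE 0.0805, adjusted p 0.669) but was called higher with total-count scaling (0.51, adjusted p 2.35e-13) and with log2(TPM + 1) (0.46, adjusted p 0.000126). Without replicate 1 the list had 2 higher and 2 lower members, as it did without replicate 3. Myc (chromosome 15, 61816946 to 61821929, plus strand) had 349, 233 and 279.5 counts in unstimulated cells, 84.8, 70.0 and 93.4 with JQ1, 467, 422 and 367 with LPS, and 353, 269 and 362 with LPS + JQ1. The libraries with and without JQ1 did not overlap in either state, but during LPS the gap was narrow and the JQ1 effect did not pass (-0.35, DESeq2 adjusted p 0.0732). The interaction was 1.45 (SE 0.258). Within its network, which had 3 higher and 4 lower of 11 (7 and 2 with total-count scaling, 3 and 2 without replicate 3), Mnt (2.22) was higher, a Max partner that opposes Myc, and Mxd1 (-1.19) was lower.

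Transcription factors of the macrophage lineage had 2 higher and 8 lower of 15 (6 and 5 with total-count scaling). Cebpa, a myeloid factor, had 6762, 8685 and 6949 counts in unstimulated cells, 8724, 10451 and 8997 with JQ1, 147, 153 and 117 with LPS, and 1044, 926 and 792 with LPS + JQ1. LPS lowered it in both, and the LPS + JQ1 libraries stood above the LPS libraries (interaction 2.40, SE 0.256, DESeq2 adjusted p 3.13e-19). Mitf was lower (-1.52). Lysosomal genes had 2 higher and 12 lower of 20, but 13 and 1 with total-count scaling and 2 and 6 without replicate 1. Glycolytic genes had 1 and 8 of 16, but 8 and 2 with total-count scaling, so no direction can be given for either list. The same holds for every list that changed from more lower to more higher calls with total-count scaling, macrophage lineage factors included. The lysosomal regulator Tfeb (1.73), the protease gene Ctsl (1.01) and the glycolytic regulator Pfkfb3 (-2.73) kept their sign under each scaling.

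Genes of the integrated stress and unfolded protein response had 7 higher and 4 lower of 12 (median 0.54; 8 and 3 with total-count scaling). Sesn2, a stress-inducible regulator of mTORC1, had 177, 233 and 183 counts in unstimulated cells, 376, 383 and 365 with JQ1, 66.5, 62.0 and 45.4 with LPS, and 413, 408 and 407 with LPS + JQ1. JQ1 raised it to 365 to 383 counts without LPS and to 407 to 413 during LPS, from baselines that stood apart (interaction 1.87, SE 0.212, DESeq2 adjusted p 3.07e-17). Ppp1r15a, which directs dephosphorylation of eIF2alpha, had 248, 353 and 261 counts in unstimulated, 319, 340.1 and 347 in JQ1, 5613, 5251 and 4264 in LPS, and 702, 602 and 628 in LPS + JQ1 cells. Ppp1r15a moved against Sesn2 (-3.21, SE 0.240, DESeq2 adjusted p 1.14e-38), as did the chaperone gene Hspa5 (-0.94). Herpud1 (0.91) was higher.

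Clock genes had 5 higher and 1 lower of 12 (median 0.90; 9 and 0 with total-count scaling). Tef had 807 ± 33.7 counts in unstimulated, 1214 ± 27.2 in JQ1, 62.1 ± 6.37 in LPS and 280.0 ± 8.84 in LPS + JQ1 cells (SD, n = 3), an interaction of 1.59 (DESeq2 adjusted p 7.64e-22), and Per1 had 1.17. Clock was lower (-0.57, adjusted p 0.00408), at -0.02 with total-count scaling. Genes of complement and coagulation had 2 higher and 7 lower of 17 (3 and 2 with total-count scaling, 2 and 4 without replicate 2). The urokinase gene Plau was higher (1.43), while Thbs1, which encodes thrombospondin 1, was lower (-2.12).

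The remaining lists had members in both directions. NRF2 targets and metallothioneins had 4 higher and 4 lower of 11, with Gclc (1.24), the catalytic subunit for glutathione synthesis, and Osgin1 (1.56) higher and Mt2 (-1.70) lower. The BCL2 family had 5 and 4 of 15, with Bcl2a1b (1.22, of a family of near-identical copies) and Bcl2l1 (0.74) higher and the pro-apoptotic Bcl2l11 (-1.19) lower. Heat shock genes had 2 and 2 of 11 (1 and 2 without replicate 1), with Hsph1 (1.47) higher and Hspa8 (-0.80) lower. Cholesterol and fatty acid synthesis had 4 and 8 of 18, with the sterol reductase gene Dhcr7 (0.59) higher and Cyp51 (-1.40) and Idi1 (-1.13) lower. The call of Dhcr7 was lost without any 1 of the replicates and that of Idi1 with total-count scaling (-0.58, adjusted p 0.0920) and log2(TPM + 0.1) (-0.68, adjusted p 0.0716). The higher members of the list numbered 1, 1 and 2 without replicates 1, 2 and 3 in turn. D-type cyclins and CDK inhibitors had 3 and 3 of 10 (1 and 3 without replicate 1), with Cdkn2c (1.55) and Ccnd1 (0.73) higher and Ccnd2 (-1.86) and Cdkn1a (-1.19) lower, and the call of Ccnd1 was lost without replicate 1 (0.66, adjusted p 0.0546). LXR targets had 1 and 2 of 8, with Mylip (0.46) higher and the cholesterol exporter Abca1 (-1.24) lower. With total-count scaling the 6 lists had 5 and 2, 7 and 2, 6 and 1, 7 and 3, 4 and 2, and 5 and 1, in that order.

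Transcripts of the genes called with an interaction of at least 1 were somewhat longer than those of all genes tested. The median effective length, RSEM's count of the positions from which a fragment can arise, was 2608 bases over all genes, 2871 over the 989 higher and 3051 over the 1003 lower genes. The ranges from the 25th to the 75th percentile overlapped widely (1574 to 4021, 1774 to 4070.4 and 1965 to 4437 bases), and the difference was not tested. The sets were not matched for count level, which bears on which genes pass, so the lengths cannot be read as a trait of the responding genes.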

How the data were processed

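RNA-seq libraries of BMDMs were made from 3 mice in 6 groups (18 libraries), sequenced as 50-base paired-end reads. The authors used STAR alignments to the mm9 genome for gene quantification in RSEM 1.2.31 and deposited per library an expected count (RSEM's estimate of reads per gene, not normalised), a TPM (a transcript abundance scaled by the authors for length and depth) and an effective length in bases. The deposited expected counts were rounded to whole numbers.

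A DESeq2 1.42.0 Wald test was fitted over all 18 libraries with 1 mean per group and median-of-ratios factors in R 4.3.3, with Benjamini-Hochberg adjustment at 0.05 over all genes tested. Normalised counts are counts divided by these factors. The interaction is LPS + JQ1 minus LPS, less JQ1 minus unstimulated, on the log2 scale. Positions came from GENCODE vM1 (mm9). Alternatives were TMM factors, total-count scaling, edgeR 4.0.16 quasi-likelihood, a count filter (at least 10 counts in at least 3 libraries), no independent filtering, the replicate number as a block, lane as a covariate, only the 12 libraries, limma 3.58.1 on log2(TPM + 1) or log2(TPM + 0.1) with genes of at least 1 TPM in at least 3 libraries, and leaving out each replicate. Only the main DESeq2 fit of the interaction was tested on simulated data, and none of the alternatives was. The simulation used the median-of-ratios factors and so cannot show which scaling gives the right direction.

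Replicate 1 was run on lane 7, replicate 3 on lane 8, and replicate 2 on 7 without and 8 with LPS, so that JQ1 and untreated libraries shared a lane within each LPS state. The groups' factors per total count ranged from 0.736 (LPS) to 1.40 (unstimulated), so scaling bears on direction.

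The members and lists were chosen with earlier results of these data known. Named genes were Il10 and 12 genes of prior interest, the 10 largest interactions in each direction with a mean of at least 100 and every group mean of at least 10 normalised counts and the same sign in all 3 replicates, the 5 strongest opposite-direction genes in each direction under the same limits, and up to 2 of the largest and 2 of the smallest called members of each of 26 lists (121 genes in all). A comparison of promoter content between all called and other genes was void, since only 79.6% of tested genes matched a promoter. Some genes that the rule names are not reported here.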

Additional observations from a re-analysis of the deposited data

Results flagged for a closer look

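The difference between the JQ1 effects during and without LPS was itself tested for every gene, and 5279 genes passed. The LPS response differed between JQ1-treated and IL-10-treated cells for 4886 genes by the same test (DESeq2, adjusted p under 0.05). Among the named genes, JQ1 acted in opposite directions in the 2 states on Hist1h3i (interaction 2.82), Hist1h1d (2.74), Hist1h2ae (2.72), Hist1h2bn (2.17) and Pdgfb (2.28), which were higher, and on Rnaset2b (-2.23), 1600014C10Rik (-2.22), Mertk (-1.95), Nlgn2 (-2.18) and Cebpd (-2.01), which were lower. With 3 libraries in a group, single libraries were not tested as outliers.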

How the results depend on the processing

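The count of genes with a higher interaction was 2250 with median-of-ratios factors, 5964 with total-count scaling, 5661 with log2(TPM + 1) and 5416 with log2(TPM + 0.1), and that of lower genes was 3029, 1023, 1176 and 1068. With total-count scaling 3110 genes reached a size of 1. Opposite effects were counted in 996 genes with total-count scaling, effects without LPS only in 1041 and, with log2(TPM + 1), 1180, and larger same-direction effects without LPS in 340 (total count), 503 (TPM + 1) and 393 (TPM + 0.1). The median interaction of LPS-induced genes was -0.68 with edgeR, -0.68 with TMM, -0.44 with total count, -0.53 with TPM + 1 and -0.49 with TPM + 0.1, that of LPS-repressed genes 0.81, 0.82, 0.97, 0.76 and 0.93, and that of the other genes 0.034, 0.059, 0.30, 0.28 and 0.28. The cause was not tested.

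Leaving out each replicate gave 3471 to 3929 genes called (1591 to 1785 of size 1), 1288 to 1544 higher and 2183 to 2385 lower. It gave 4050 to 4778 for JQ1 without LPS, 6577 to 6973 during LPS and 3020 to 3532 for the LPS response with JQ1 against IL-10. The pattern counts were 1936 to 2026 (during LPS only), 362 to 519 (without LPS only), 85 to 112 (neither), 282 to 368 (opposite), 741 to 925 (larger during LPS) and 63 to 91 (larger without LPS). Medians ran from -0.83 to -0.72 for induced, -0.06 to -0.05 for other and 0.71 to 0.74 for repressed genes.

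The groups share replicate numbers, but the labels tie no number to a mouse. Deviations of same-numbered libraries had mean correlations of -0.065 to 0.153 over the 6 pairs of groups, and a library correlated best with its own number in 25 of 36 cases. With the replicate block 5397 genes passed (2282 higher, 3115 lower), and among the 121 named genes only Usp18 changed its call. Signs turned for Nfkbia (0.42 and called with total count, 0.35 and 0.35 with TPM + 1 and TPM + 0.1), Fcgr4 (0.23 with total count, 0.014 with TPM + 0.1, and -0.80 to 0.039 with each replicate left out, the latter without replicate 3) and Brd2 (0.056 with edgeR, 0.078 with TMM, 0.51 with total count, 0.46 and 0.45 with TPM + 1 and TPM + 0.1). Direction and side of the threshold were kept by 101 of the 121 genes with total count and by 112 to 121 under each other alternative but the TPM scales (102 and 102). Counts near 0 without LPS limit the cytokine genes.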
